A study of Mus musculus with 7 samples.

Results

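The respiratory chain subunits of the inner mitochondrial membrane were followed in retinal pigment epithelium (RPE), the pigmented layer behind the photoreceptors. Members were the genes whose symbol starts with Nduf, Sdh, Uqcr, Cox4, Cox5, Cox6, Cox7, Cox8 or Atp5, which gave 93 of the 19938 genes tested. They comprised 41 genes of complex I, 8 of complex II, 8 of complex III, 19 placed with complex IV and 17 of complex V, and 11 of these (7 for complex I and 4 for complex II) encode assembly factors rather than subunits. The tested arrays came from 3 samples of mice carrying the Mfrp rd6 allele, and 4 samples of wild-type (WT) mice served as controls, all on the C57Bl/6J background. Mfrp rd6 is a recessive mutation of a frizzled-related membrane protein made by the RPE, and homozygotes develop a slow retinal degeneration. The age field puts the 3 Mfrp rd6 samples at 12 weeks and the 4 WT samples at 8 weeks, whereas the growth notes put only Mfrp rd6 replicate 1 at 12 weeks and the other samples at 8. Under the first reading age and genotype cannot be told apart. The RNA came from RPE pellets, shaken off eyecups from which cornea and lens had been removed. The labels do not say how many animals or eyes went into a pellet or whether replicates are separate animals, so the p-values speak only for the variation among these 7 samples, part of which may be technical.

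The chain passes electrons from NADH (complex I, NADH dehydrogenase) and succinate (complex II, succinate dehydrogenase) through complex III (cytochrome bc1) and cytochrome c to oxygen at complex IV (cytochrome c oxidase), and ATP synthase (complex V) uses the proton gradient that results. Most of its subunits are encoded by nuclear genes, which tend to be expressed together. Complex IV differs from the others in having subunits with tissue isoforms, among them forms of striated muscle. RPE relies strongly on mitochondrial respiration, which leaves glucose for the photoreceptors.

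Each value is a log2 signal of 1 array, so levels of different genes cannot be ranked against each other, and changes are log2 differences of Mfrp rd6 minus WT. The array medians lay between 6.52 and 6.58, and pairs of arrays correlated at 0.992 to 0.993 in Mfrp rd6, 0.991 to 0.994 in WT and 0.988 to 0.992 across the groups. The 18 RPE markers had a mean signal of 11.28 ± 0.04 in Mfrp rd6 (SD, n = 3) and 11.29 ± 0.06 in WT (SD, n = 4). The pellets also held other RNA. The mean of 18 microglia and macrophage markers was 8.61 to 9.20 in Mfrp rd6 and 7.12 to 7.21 in WT, with 14 of 18 past the threshold, all higher. The mean of 29 skeletal muscle markers was 7.25 to 8.03 in Mfrp rd6 and 6.38 to 7.23 in WT. The mean of 16 rod markers was 7.17 to 7.49 in Mfrp rd6 and 7.38 to 8.43 in WT. Of 12 choroidal endothelial markers 2 were higher (9 at an unadjusted p under 0.05), and all 12 changes were positive. Their mean was 7.39 to 7.78 in Mfrp rd6 and 6.915 to 7.35 in WT. Of 9 surface epithelium markers limma called 0 (3 at an unadjusted p under 0.05), and 7 changes were negative. Their mean was 11.43 to 11.51 in Mfrp rd6 and 11.60 to 11.72 in WT. In bulk RNA, fewer cells of a type and less RNA per cell cannot be told apart. The probe set that covers Mfrp is shared with its neighbour C1qtnf5 and read 11.17 ± 0.07 in Mfrp rd6 and 11.33 ± 0.12 in WT, so it does not check the genotype.

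Promoter sequence is shown for 4 genes that the results turn on: Cox8b, a muscle form that rose in Mfrp rd6, Cox7a1, a muscle form that did not pass the test, Cox6a1, a ubiquitous form, and Ndufa4, which fell. The sequences are the 250 bases before the annotated RefSeq start in GRCm38.p6, read 5′ to 3′ on the gene's strand, and capitals mark the motifs described afterwards. Cox8b lies at chr7:140900447-140900696 on the minus strand, Cox7a1 at chr7:30183921-30184170 on the plus strand, Cox6a1 at chr5:115348959-115349208 on the minus strand and Ndufa4 at chr6:11907451-11907700 on the minus strand.
Cox8b: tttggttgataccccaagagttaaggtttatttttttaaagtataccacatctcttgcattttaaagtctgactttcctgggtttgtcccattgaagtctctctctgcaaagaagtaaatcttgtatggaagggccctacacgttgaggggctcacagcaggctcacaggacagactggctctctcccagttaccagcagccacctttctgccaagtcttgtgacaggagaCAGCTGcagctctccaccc
Cox7a1: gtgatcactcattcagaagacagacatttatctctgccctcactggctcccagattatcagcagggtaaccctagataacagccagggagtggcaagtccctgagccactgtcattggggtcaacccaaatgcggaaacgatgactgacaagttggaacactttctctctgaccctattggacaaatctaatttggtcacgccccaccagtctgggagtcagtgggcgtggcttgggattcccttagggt
Cox6a1: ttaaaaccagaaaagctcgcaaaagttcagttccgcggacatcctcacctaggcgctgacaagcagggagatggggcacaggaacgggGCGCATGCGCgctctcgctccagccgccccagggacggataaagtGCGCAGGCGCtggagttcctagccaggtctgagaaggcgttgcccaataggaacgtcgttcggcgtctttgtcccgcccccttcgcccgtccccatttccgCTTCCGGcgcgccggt
Ndufa4: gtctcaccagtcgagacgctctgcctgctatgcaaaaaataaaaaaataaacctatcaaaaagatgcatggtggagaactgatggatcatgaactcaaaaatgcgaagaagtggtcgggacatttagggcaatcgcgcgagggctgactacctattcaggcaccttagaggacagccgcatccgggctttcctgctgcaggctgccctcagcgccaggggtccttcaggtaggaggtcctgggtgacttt

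Windows of 300 bases (250 before and 50 after the start) were searched on both strands. Of 82 windows of 77 members, 21 (25.6%) held the motif of nuclear respiratory factor 1 (NRF1), a regulator of mitochondrial genes, searched as GCGCA, any base and GCGC, as did 6.91% of the 19177 windows of genes tested. CCGGAAG, the ETS motif bound by the mitochondrial regulator GABP, was in 21 member windows (25.6%) and in 12.1% of all windows. AANATGGCG, read by the zinc finger protein YY1, was in 11 (13.4%) and in 3.27% of all windows. AAGGTCA, the motif of oestrogen-related receptors, was in 7 (8.54%) and in 3.82% of all windows. CAGCTG, an E-box of the kind used by muscle transcription factors, was in 6 (7.32%) and in 16.3% of all windows, and TATAAA was in 10 (12.2%) and in 11.5% of all windows. Cox6a1 held the NRF1 motif from positions -162 and -117 and CCGGAAG, on the opposite strand, from position -16 relative to the start, with no overlap between them. Cox8b held CAGCTG from positions -19 and 17 and TATAAA from position 5, of which the matches at 17 and 5 lie after the annotated start and outside the printed stretch. The windows of Ndufa4 and Cox7a1 held none of the 6 motifs. These matches describe the sequence and were not tied to binding in this tissue.

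Across the respiratory chain, 4 members passed the test, and all 4 were among the genes placed with complex IV, Ndufa4l2 only as the paralogue of Ndufa4. Cox8b and Cox6a2, isoforms of striated muscle, rose, and Ndufa4 and its paralogue Ndufa4l2 fell. By limma with an adjusted p under 0.05, 2 of 93 members were higher, where 1.34% of all genes tested were, and 2 were lower, where 0.813% of all genes tested were. In either direction this was 4.30% of members, against 2.15% of all genes tested. The median change was -0.0008 over the members and -0.02 over all genes tested, and 45 of 93 members (48.4%) had a positive change, as did 43.3% of all genes tested. An unadjusted p under 0.05 was found in 16 of 93 members, and in 15.4% of all genes tested. The arrays of the groups did not overlap in 20 members (21.5%), 10 higher and 10 lower in Mfrp rd6, where 15.3% of all genes tested did not overlap, 5.52% higher and 9.82% lower.

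**Figure D1:**
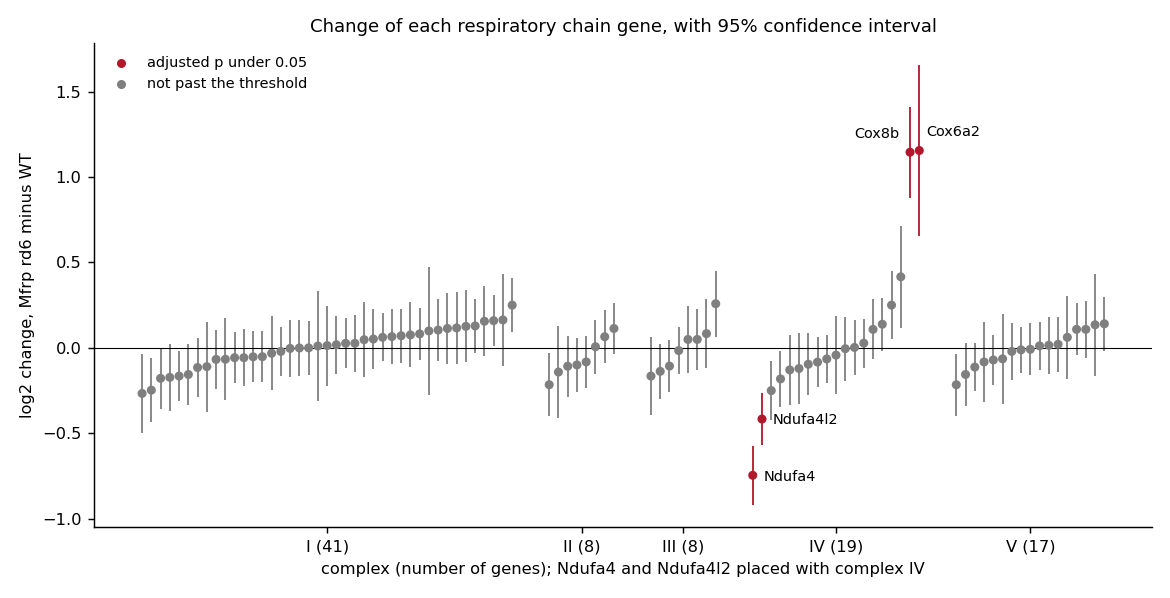
Log2 change (Mfrp rd6 minus WT, vertical axis) of each of the 93 genes, grouped by complex and sorted within it; points are limma estimates and bars their 95% confidence intervals, and red marks an adjusted p under 0.05. Cox6a2 (1.16) and Cox8b (1.15) stand above and Ndufa4 (-0.75) and Ndufa4l2 (-0.42) below the rest. Cox7a1 (0.42) also stands apart but is not past the threshold, and the other members lie between -0.27 and 0.26.

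Ndufa4 had the largest fall of the chain. It was first isolated with complex I and is now placed with cytochrome c oxidase, as a subunit at its periphery. Its signal was 9.83, 9.72 and 9.69 in Mfrp rd6, against 10.40, 10.58, 10.57 and 10.42 in WT. Every Mfrp rd6 array lay below every WT array. The means were 9.75 ± 0.07 in Mfrp rd6 (SD, n = 3) and 10.49 ± 0.10 in WT (SD, n = 4), a change of -0.75 (SE 0.08, 95% confidence interval -0.92 to -0.57, limma adjusted p = 0.00112), or 1.68-fold lower. By p-value Ndufa4 stood at rank 52 of the 19938 genes. With the level of the skeletal muscle markers as a covariate it was -0.85 with an adjusted p of 0.0807. The microglia and macrophage marker mean differed by 1.69 between the same arrays, and its part in the Ndufa4 result was not tested.

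Set against complex I, where its symbol places it, Ndufa4 moved apart from the rest. The mean of the 34 complex I subunits was 9.63, 9.67 and 9.58 in Mfrp rd6, against 9.51, 9.65, 9.70 and 9.60 in WT, so these arrays overlapped. Ndufa4 minus that mean was 0.20, 0.05 and 0.11 in Mfrp rd6 and 0.89, 0.93, 0.87 and 0.82 in WT. The difference between the group means of this within-array measure was -0.76, almost the whole change of Ndufa4, while the complex I mean itself differed by 0.01. A measure of this kind shows unequal change, not that complex I did not change.

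The Ndufa4 family has other members with tissue-restricted use. Ndufa4l2, a paralogue induced by hypoxia and known from pericytes, was dim, at 5.87, 6.01 and 5.92 in Mfrp rd6, against 6.39, 6.37, 6.27 and 6.37 in WT. The groups did not overlap, and the change was -0.42 (SE 0.07, limma adjusted p = 0.0149). It no longer passed when Mfrp rd6 replicate 1 (-0.39, adjusted p = 0.0713) or WT replicate 4 (-0.41, adjusted p = 0.0554) was left out, nor with the muscle mean as a covariate (-0.37, adjusted p = 0.475). AA467197, the mouse counterpart of the inflammation-linked protein that can take the place of Ndufa4, was chosen after its values were seen. It read 8.69, 8.11 and 9.25 in Mfrp rd6 and 9.29, 9.50, 9.31 and 9.02 in WT, which overlap, and its change of -0.60 did not pass (limma adjusted p = 0.239). Among 11 smooth muscle and pericyte markers, 1 was higher and 0 lower by limma (5 at an unadjusted p under 0.05). The potassium channel subunit Kcnj8 was higher by 0.66 (adjusted p = 0.0318). The other 4 with an unadjusted p under 0.05 did not pass, namely the intermediate filament Des at 1.47 (adjusted p = 0.0695), which striated muscle also makes, Abcc9, the partner of Kcnj8, at 0.50 (adjusted p = 0.0545), Rgs5 at -0.46 (adjusted p = 0.224) and Cspg4 at -0.25 (adjusted p = 0.242). The marker level averaged over the list overlapped between the groups, with means of 7.53 to 7.77 in Mfrp rd6 and 7.39 to 7.66 in WT, and its part in the Ndufa4l2 result was not tested.

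**Figure D2:**
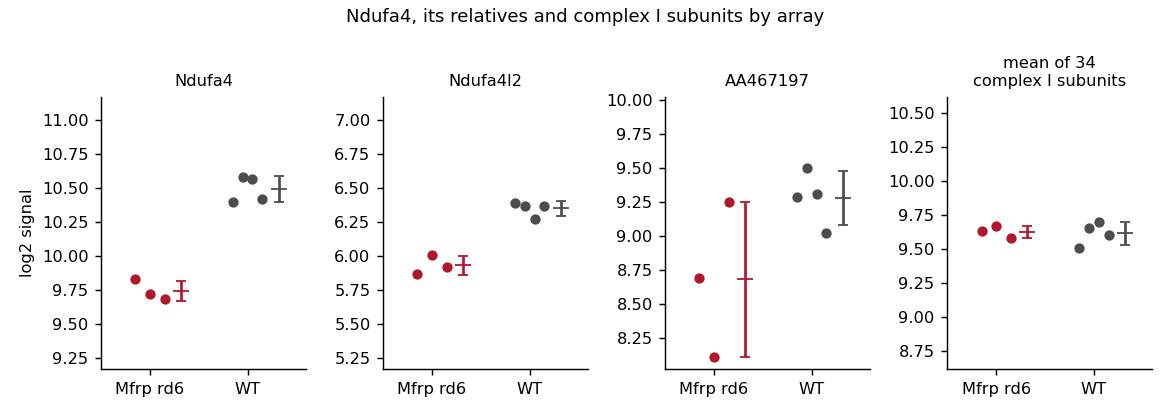
Log2 signal of Ndufa4, Ndufa4l2, AA467197 and the mean of 34 complex I subunits; points are arrays (3 Mfrp rd6, 4 WT), the horizontal dash and bar beside them the mean and SD, and all panels span 2 log2 units. Ndufa4 and Ndufa4l2 separate the groups, and AA467197 and the complex I mean overlap.

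The 5 genes of all those tested whose values followed Ndufa4 most closely over the 7 arrays were Anp32a (r = 0.999), Nckap1 (r = 0.993), Alg9 (r = 0.991), Map6d1 (r = 0.989) and Uvrag (r = 0.989). These correlations rest mainly on the gap between the 2 genotypes and are given as a description. Of them Map6d1 had the largest change, -1.88, followed by Alg9 at -0.38 and Anp32a at -0.36.

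In complex IV, 2 of the 3 striated muscle isoforms rose in Mfrp rd6, and Cox7a1 did not pass the test. Cox6a2, the heart and muscle form of subunit VIa, read 8.26, 8.71 and 7.84 in Mfrp rd6, against 7.23, 6.80, 7.57 and 6.86 in WT. The groups did not overlap, Mfrp rd6 replicate 3 and WT replicate 3 being the nearest, and the change was 1.16 (SE 0.22, limma adjusted p = 0.0318), or 2.23-fold. Cox8b, the muscle and brown fat form of subunit VIII, read 12.63, 12.59 and 12.61 in Mfrp rd6, against 11.33, 11.31, 11.82 and 11.40 in WT. Its Mfrp rd6 arrays had an SD of 0.02 and lay above every WT array, and the change was 1.15 (SE 0.12, 95% confidence interval 0.88 to 1.41, limma adjusted p = 0.00112), or 2.21-fold. Cox7a1, the muscle form of subunit VIIa, read 8.48, 8.61 and 8.36 in Mfrp rd6 and 7.72, 8.05, 8.32 and 8.18 in WT. Its arrays did not overlap either, but the change of 0.42 (SE 0.13) did not pass (limma adjusted p = 0.17).

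The ubiquitous partners of these isoforms did not pass the test. Cox6a1 read 10.62, 10.76 and 10.52 in Mfrp rd6 and 10.83, 10.82, 10.83 and 10.78 in WT, which did not overlap. Its change was -0.18 with a 95% interval of -0.35 to -0.02 (limma adjusted p = 0.274). Cox7a2 read 10.16 ± 0.13 in Mfrp rd6 (n = 3) and 10.25 ± 0.08 in WT (n = 4), a change of -0.10 with a 95% interval of -0.28 to 0.09. Cox8a read 11.77 ± 0.04 in Mfrp rd6 and 11.74 ± 0.04 in WT, a change of 0.03 with an interval of -0.12 to 0.17. The intervals of these 3 genes did not reach the lower limits for Cox6a2 (0.65) and Cox8b (0.88).

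**Figure D3:**
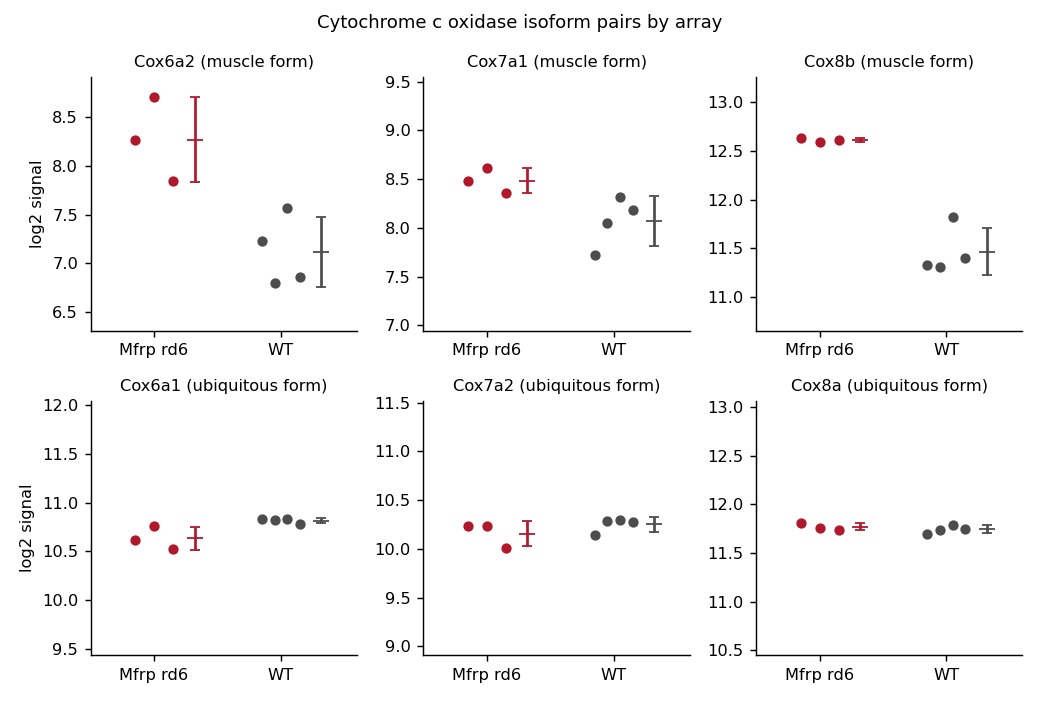
Log2 signal of the muscle form (upper row) and ubiquitous form (lower row) of cytochrome c oxidase subunits VIa, VIIa and VIII; points are arrays (3 Mfrp rd6, 4 WT), dash and bar the mean and SD, and all panels span 2.6 log2 units. Cox6a2 and Cox8b rose by 1.16 and 1.15, while Cox6a1 and Cox8a differed by -0.18 and 0.03.

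Skeletal muscle transcripts moved with these isoforms. Of 29 muscle markers, 5 passed the test, all higher, and 23 had an unadjusted p under 0.05 by limma. The change was positive in 28 of 29, and the median over the 29 was 0.93. The marker means were 7.74, 8.03 and 7.25 in Mfrp rd6, against 6.38, 6.42, 7.23 and 6.52 in WT, so that WT replicate 3 came close to Mfrp rd6 replicate 3. Cox7a1 was ordered like these means over all arrays, and Cox6a2 was except among the 3 lowest WT arrays. On the pair of near-equal muscle means, Cox6a2 read 7.84 in Mfrp rd6 replicate 3 and 7.57 in WT replicate 3, and Cox7a1 read 8.36 and 8.32 on the same arrays. Cox8b was not ordered in this way within Mfrp rd6, and on that pair it read 12.61 in Mfrp rd6 replicate 3 and 11.82 in WT replicate 3. With the muscle mean as a covariate the change was 0.27 for Cox6a2 (limma adjusted p = 0.851), -0.01 for Cox7a1 (adjusted p = 0.996) and 0.78 for Cox8b (adjusted p = 0.193). That covariate differs by 1.04 between the groups, which leaves less of the contrast to estimate, and 51 of all genes tested passed with it, against 429 without it.

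**Figure D4:**
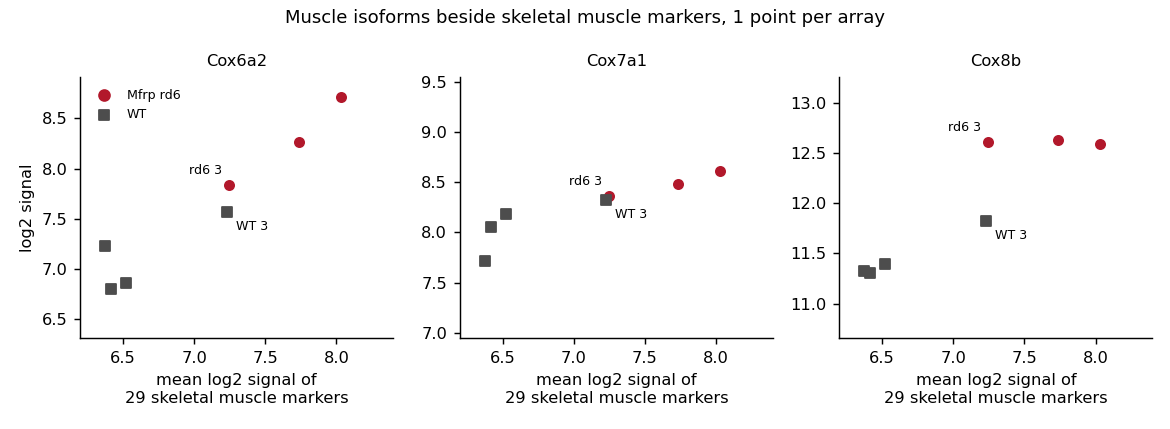
Log2 signal of Cox6a2, Cox7a1 and Cox8b (vertical axes, 2.6 log2 units each) against the mean log2 signal of 29 skeletal muscle markers, 1 point per array (red circles Mfrp rd6, grey squares WT). At muscle means of 7.25 (Mfrp rd6 replicate 3) and 7.23 (WT replicate 3), Cox8b read 12.61 and 11.82, and Cox7a1 8.36 and 8.32.

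Cox8b passed in every fit that left out 1 array, with changes of 1.09 to 1.26. Cox6a2 passed in 2 of these 7 fits, those without Mfrp rd6 replicate 3 (1.37) or WT replicate 3 (1.31), and had adjusted p-values of 0.0759 to 0.0997 without Mfrp rd6 replicate 1 or 2 or WT replicate 1, 2 or 4. Because Cox8b also marks brown fat, adipocyte markers were read after the isoform values were seen. Of 11 measured, 1 was higher and 0 lower by limma (2 at an unadjusted p under 0.05), the lipid droplet protein Plin4 at 0.79 (adjusted p = 0.0072), which muscle makes as well. The other with an unadjusted p under 0.05 was Cidea at -0.50 (limma adjusted p = 0.12), whose arrays did not overlap between the groups. Ucp1, the uncoupling protein that defines brown fat, differed by 0.06, and Adipoq, the adipokine of fat cells, by 0.04. The means of these 11 markers were 5.58 to 5.80 in Mfrp rd6 and 5.60 to 5.75 in WT.

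The other isoforms of complex IV did not pass. Cox4i2, the form of lung and pericytes, read 7.06, 7.14 and 7.22 in Mfrp rd6 and 7.32, 7.45, 7.31 and 7.48 in WT. These arrays did not overlap, and its change was -0.25 (SE 0.08, limma adjusted p = 0.151), beside -0.005 for the ubiquitous Cox4i1. Cox6b2, the testis form of subunit VIb, read 8.45, 8.44 and 8.49 in Mfrp rd6 and 8.12, 8.11, 8.43 and 8.18 in WT, a change of 0.25 (adjusted p = 0.211), and the ubiquitous Cox6b1 differed by -0.08. The testis forms Cox7b2 and Cox8c were dim, with means of 3.64 and 6.01 in Mfrp rd6 and 3.77 and 6.05 in WT. Of the 9 ubiquitous subunits of complex IV, limma called 0, against 2.15% of all genes tested. The unadjusted p was under 0.05 in 1 of the 9, against 15.4% of all genes tested. Changes of these 9 ran from -0.18 (Cox6a1) to 0.14 (Cox7b). Cox7a2l, which joins complexes III and IV into supercomplexes, differed by 0.11. Its other probe set gave -0.04.

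The remaining 84 members, without Ndufa4, Ndufa4l2 and the 7 tissue isoforms, held no call. Their changes lay between -0.27 and 0.26. Of the 84, 47 were within 0.1 of 0, a share close to that of all genes tested (11180 of 19938). Their 95% confidence intervals reached from -0.50 to 0.47 at the extremes, and 75 of the 84 intervals held 0. The other 9 had an unadjusted p under 0.05 by limma, as did 15.4% of all genes tested.

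In complex I, 0 of 41 genes passed by limma, against 2.15% of all genes tested, and the median change was 0.01. An unadjusted p under 0.05 was found in 5 of 41, against 15.4% of all genes tested. The 6 core subunits, most of which carry flavin or iron-sulfur clusters, had changes of -0.25 to 0.13. The lowest was Ndufs1, the large iron-sulfur subunit, at 8.70, 8.66 and 8.41 in Mfrp rd6 and 8.82, 8.91, 8.83 and 8.79 in WT (limma adjusted p = 0.196). Its arrays did not overlap. Among the 28 supernumerary subunits Ndufv3, a small subunit of the peripheral arm, had the highest change, with 9.11, 9.20 and 9.11 in Mfrp rd6 and 8.78, 8.90, 8.97 and 8.91 in WT. That change of 0.25 (adjusted p = 0.129) passed in 1 of 17 alternatives, quantile normalization of the genes (0.29, adjusted p = 0.0425). Ndufb6, a membrane-arm subunit, had the lowest, -0.27 (adjusted p = 0.247), with 10.04, 10.07 and 9.66 in Mfrp rd6 and 10.13 to 10.26 in WT. Its change was -0.135 without Mfrp rd6 replicate 3 (adjusted p = 0.508). Ndufc2, another membrane-arm subunit, read 11.95 ± 0.06 in Mfrp rd6 (n = 3) and 12.12 ± 0.04 in WT (n = 4). The 7 assembly factors, Ndufaf1 to Ndufaf7, ranged from -0.17 (Ndufaf1) to 0.16 (Ndufaf4), and all 7 overlapped between the groups.

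In complex II, which also serves the tricarboxylic acid cycle, 0 of 8 genes passed by limma, against 2.15% of all genes tested. The unadjusted p was under 0.05 in 1 of 8, against 15.4% of all genes tested. The flavoprotein Sdha read 10.73, 10.77 and 10.63 in Mfrp rd6 and 10.83, 10.81, 10.79 and 10.74 in WT. The iron-sulfur subunit Sdhb differed by 0.01, and the membrane anchors Sdhc and Sdhd by 0.07 and -0.10. All 4 subunits overlapped between the groups. Of the assembly factors Sdhaf3 had the lowest change (-0.22) and Sdhaf1 the highest (0.11). For Sdhaf4 the 2 probe sets differed in sign, at -0.14 and 0.12.

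In complex III, 0 of 8 subunits passed by limma, against 2.15% of all genes tested. The unadjusted p was under 0.05 in 1 of 8, against 15.4% of all genes tested. Uqcr10, a small supernumerary subunit, read 9.69, 9.78 and 9.73 in Mfrp rd6 and 9.29, 9.47, 9.63 and 9.51 in WT. These groups were apart, with a change of 0.26 (SE 0.09, limma adjusted p = 0.189). Uqcr11 had the lowest change, -0.17, and its other probe set gave 0.01. The core protein Uqcrc1 differed by 0.05, the Rieske iron-sulfur protein Uqcrfs1 by -0.14, and Uqcrb, the ubiquinone-binding subunit, read 11.89 ± 0.07 in Mfrp rd6 (n = 3) and 12.00 ± 0.05 in WT (n = 4).

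In complex V, 0 of 17 genes passed by limma, against 2.15% of all genes tested. The unadjusted p was under 0.05 in 1 of 17, against 15.4% of all genes tested. Of the 3 genes for the ring-forming c subunit, Atp5g1 read 12.03, 12.04 and 12.03 in Mfrp rd6 and 11.78, 11.93, 11.99 and 11.87 in WT (0.14, limma adjusted p = 0.391). Atp5g2 differed by 0.11 with separate groups, and Atp5g3 by -0.02 with overlapping groups. The F1 subunits, which hold the catalytic sites and the rotor, ranged from -0.11 (Atp5c1, the gamma subunit) to 0.14 (Atp5e, the epsilon subunit), and Atp5d, the delta subunit, read 12.77 ± 0.03 in Mfrp rd6 and 12.76 ± 0.04 in WT. The lowest change of complex V was that of the small membrane proteolipid Atp5mpl, -0.22 (adjusted p = 0.237).

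WT replicate 1 was low for the chain as a whole, and for some other mitochondrial gene lists as well. It held the lowest of the 4 WT values in 68 of 93 members (73.1%), against 35.1% of all genes tested. The median deviation of the members from each gene's own mean was 0.01, 0.02 and -0.02 in Mfrp rd6 and -0.07, 0.05, 0.06 and -0.01 in WT. All 5 complexes were low on that array, from -0.06 (complex I) to -0.11 (complex III), while all genes tested had a median of 0.00 there. The members' medians thus spread more widely among the WT arrays than the genotypes differed. Without that array the median change of the members was -0.03, against -0.0008 with it, and Cox6a2 did not pass (1.19, adjusted p = 0.0775). The mean of 77 mitochondrial ribosomal proteins was 8.21 there and 8.33 to 8.43 on the other WT arrays. For 31 assembly factors with other symbols it was 8.30, against 8.39 to 8.44. The pyruvate dehydrogenase group and the biogenesis regulators were also lowest there. The mitochondrially encoded subunits were highest there among WT arrays. The cytochrome c and carrier lists were lowest on WT replicate 4. For the tricarboxylic acid cycle the mean was 10.08 on both WT replicate 1 and WT replicate 4, and higher on the other WT arrays.

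**Figure D5:**
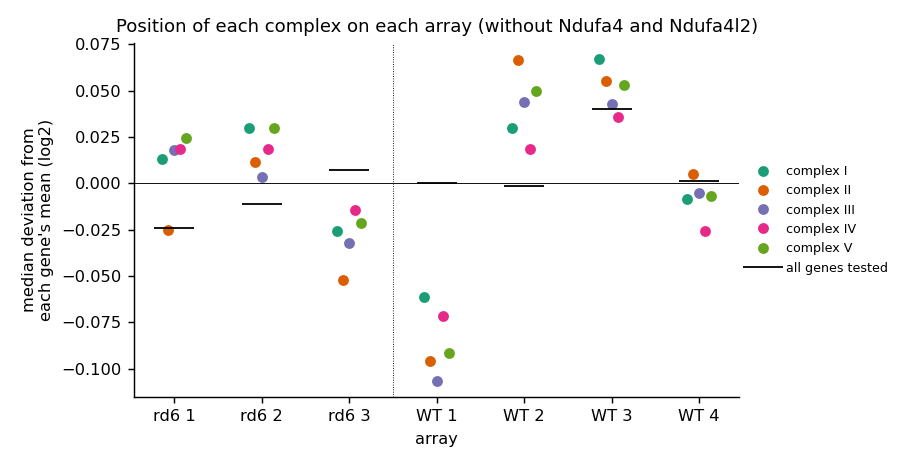
Median over the genes of each complex (without Ndufa4 and Ndufa4l2) of the log2 deviation from the gene's mean over the 7 arrays, for each array (Mfrp rd6 left of the dotted line, WT right); black dashes give the same over all genes tested. WT replicate 1 lies between -0.06 and -0.11 for the 5 complexes.

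The wider mitochondrial programme held no call either. In 8 lists with 154 measured genes, 0 passed by limma, against 2.15% of all genes tested. An unadjusted p under 0.05 was found in 19 of the 154, against 15.4% of all genes tested. The list medians ran from -0.05 to 0.05. The mitochondrially encoded subunits were represented by COX2, a catalytic subunit of complex IV, at 12.77, 12.85 and 12.92 in Mfrp rd6 and 12.78, 12.65, 12.60 and 12.71 in WT, and by ND3, a complex I subunit, which differed by -0.06. The electron carrier Cycs differed by 0.05 and Cyc1, the cytochrome of complex III, by -0.0008. Among 12 genes of the tricarboxylic acid cycle Suclg2, a succinyl-CoA ligase subunit, came nearest to the threshold of all 154, with 9.88, 9.76 and 9.79 in Mfrp rd6 and 9.41, 9.57, 9.50 and 9.48 in WT. Its groups were apart, with a change of 0.32 (limma adjusted p = 0.0509). The other succinyl-CoA ligase subunits, Sucla2 and Suclg1, differed by -0.21 and -0.05.

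Of the remaining lists, the 31 assembly factors with other symbols lay between -0.27 (Coa3, for complex IV) and 0.21 (Cox20, also for complex IV). The 77 mitochondrial ribosomal proteins had a median of -0.01, with Mrps21 the highest at 0.42 (adjusted p = 0.163). Of 11 regulators of mitochondrial biogenesis, the coactivator Ppargc1a differed by 0.18 (adjusted p = 0.277), Gabpb1, a GABP subunit, by -0.23, and Nrf1, the gene of NRF1, by -0.12. Among 9 genes of the pyruvate dehydrogenase group the kinases Pdk4 and Pdk1 had the largest changes, 0.38 and 0.22. Of 9 carriers, porins and creatine kinases, Ckmt2, the creatine kinase of muscle mitochondria, had the largest change, 1.01 (adjusted p = 0.129), on arrays where the muscle marker mean was also higher by 1.04. The adenine nucleotide carriers Slc25a4 and Slc25a5 differed by -0.05 and -0.11.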

How the data were processed

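RNA from 7 RPE pellets was hybridised to 1 Affymetrix whole-transcript array each. The authors deposited log2 values, 1 per probe set and array, made with Affymetrix Expression Console and RMA per the submitters' processing notes; their versions were not stated in these sources. RMA equalises the arrays' distributions and compresses changes of dim probe sets. Depth does not apply to arrays, and their number limits the precision (median standard error of a change 0.09).

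Of 35556 probe sets, the 21789 with exactly 1 symbol in the platform annotation were used, and the highest-mean one stood for each of 19938 genes. The 93 members had 119 such probe sets. In 18 members there were several, and in 4 of these they differed in sign by more than 0.005. The 6 probe sets shared between a member's symbol and another (among them all for Cox7c and Ndufb4) were left out. Symbols matched RefSeq (GRCm38.p6) for 93 of 93 members, and promoters were taken from RefSeq.

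All genes were fitted with limma 3.58.1 (R 4.3.3, lmFit and eBayes, Mfrp rd6 minus WT, no covariate), and p-values were adjusted by Benjamini-Hochberg over the 19938 genes and called under 0.05. The fit was tested on simulated data. The members and gene lists were chosen with earlier results of these data known, and the adipocyte list was added after the isoform values were seen. Named were Ndufa4 and Ndufa4l2, members past the threshold, the brightest, highest and lowest member of each complex, the isoform families of complex IV, the c-subunit genes, the Sdh subunits, and from other lists the largest changes; others were chosen after their values were seen. There were 17 alternatives: other normalizations, filters on dim genes, variance trend, array weights, mean of probe sets, replicate block, muscle mean as a covariate, and arrays left out. Python 3.11.15, pandas 2.3.3 and matplotlib 3.10.9 made tables and figures.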

Additional observations from a re-analysis of the deposited data

Results flagged for a closer look

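Of 49 gene and list values examined, 3 had 1 WT array far from the other 3, and chance flags about 1 in 20 such groups. Cox4i1 (9.88) and Cox7a2 (10.14) were low in WT replicate 1, the array on which 68 of 93 members had their lowest WT value. Ndufa4l2 was low in WT replicate 3 (6.27), which was still above the 3 Mfrp rd6 arrays.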

How the results depend on the processing

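Ndufa4 passed in 16 of 17 alternatives (-0.79 to -0.72 when 1 array was left out) and Cox8b in 16 of 17, and none of the 4 called members turned its sign in any alternative. When the muscle marker level entered as a covariate, 0 members were called higher and 0 lower, Ndufa4 read -0.85 (adjusted p = 0.0807), and the median change was -0.10 over the members, -0.11 in complex I, -0.062 in complex III and -0.10 in complex V; the cause was not tested. The replicate block left 1 member higher (Cox8b) and 1 lower (Ndufa4), on 6 arrays. Same-numbered arrays had deviations from their group means that correlated at -0.30, -0.07 and 0.04. With so few arrays these values cannot settle whether the numbers pair the samples. Only 1 member was called lower when genes above the median level alone were tested, since Ndufa4l2 was not among them, and without WT replicate 3 and Mfrp rd6 replicate 2 together. Leaving out 1 array gave 1 to 2 members higher and 1 to 2 lower, and without Mfrp rd6 replicate 1, the equal-age comparison under the growth notes, 1 was higher (Cox8b) and 1 lower (Ndufa4). The complex IV median was 0.040 with quantile normalization. Medians moved by less than the spread between replicates in the fits that left out 1 array, and over the members they ran from -0.03 to 0.02. Counts over all genes tested were 51 to 718, against 429. Dim genes such as Cox7b2 and Ndufa4l2 are near the level where RMA understates changes.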
